A study of Mus musculus with 20 samples.

Results

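The genes described here encode 3 families of RNA-binding proteins: the serine- and arginine-rich (SR) splicing factors, the heterogeneous nuclear ribonucleoproteins (hnRNPs) and the Rbm proteins. They were taken by symbol from the count tables, as every Srsf gene with a number, every symbol that begins with Hnrnp, and every Rbm gene with a number (and Rbmx), pseudogene copies left out. This gave 67 genes of the 49568 symbols in the tables, of which 11 were SR, 20 hnRNP and 36 Rbm genes. The rule reads symbols only. In what follows, the error after a log2 fold change is its standard error (SE), with 5 libraries in each group unless WT LT-HSC 1 was left out, and p-values are adjusted over all genes.

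RNA was sequenced from long-term haematopoietic stem cells (LT-HSC), the bone marrow cells that can renew themselves for life, and from multipotent progenitors (MPP), the dividing cells that descend from them. Both were sorted by flow cytometry from untreated mice aged 8 to 12 weeks. The mice were C57BL/6 animals (WT) or knockouts of the aryl hydrocarbon receptor (Ahr-KO), and the labels of both give the strain as C57BL/6. Each of the 4 groups, WT LT-HSC, Ahr-KO LT-HSC, WT MPP and Ahr-KO MPP, has 5 libraries. The labels do not give the allele, the sort markers, or whether a library is 1 animal or a pool. If libraries of a group were not separate animals, the p-values below measure technical spread only. AHR is a transcription factor that ligands switch on, and the stated question is which of its target genes control stem cell function and proliferation.

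SR proteins bind short exonic elements through RNA recognition motifs, and their arginine- and serine-rich tails, phosphorylated by the Srpk and Clk kinases, recruit the spliceosome to nearby splice sites. Many hnRNPs bind the same transcripts and often oppose exon inclusion, besides packaging, exporting and stabilising RNA. The Rbm genes share little beyond an RNA recognition motif: some are spliceosome components, others act in RNA decay, methylation, editing or the response to cold. Splicing factors, SRSF2 among them, are recurrently mutated in human clonal disorders of blood stem cells.

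Library totals were 13712668 to 21622653 counts, and the 67 genes held 1.37% to 1.69% of them. Levels are given as CPM, counts relative to a library total that was adjusted for composition by TMM over all 20 libraries. Transcripts of Ahr itself were present in every library, at 20.8 to 36.6 CPM in WT LT-HSC, 18.5 to 29.7 CPM in their Ahr-KO counterparts, and at 5.80 to 14.2 in WT MPP and 9.80 to 19.2 in MPP of knockouts, so that directions below are between libraries as labelled. The 15 genes listed as LT-HSC markers summed to 3238 to 4820 CPM in LT-HSC and 1414 to 2493 CPM in MPP, and the 10 listed as MPP markers to 520.9 to 2384 and 5827 to 11540 CPM, and no marker was at 0 in every library of a group.

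The library WT LT-HSC 1 stood apart. Of the 58 members with a mean of at least 5 CPM, 16 (27.6%) lay more than 1.5-fold outside the range of the other 4 WT LT-HSC libraries, against 0 or 1 member in each of the other 19 libraries. Over all 11880 genes of that level the share in this library was 37.9%. Rbm33 was at 6.85 CPM in it against 49.2 to 56.3 CPM in the others, and Rbm41 at 0.428 against 7.55 to 18.1. Hnrnph1, whose protein binds runs of G, was at 55.3 CPM against 138.5 to 161, and Srsf6 at 126 against 241 to 272. Rbm38, an RNA stabiliser that is itself a p53 target, had 110.5 CPM against 36.2 to 38.0, and Hnrnpa1, the archetypal splicing repressor, 599 against 348 to 353. The library also had the lowest sum of mitochondrially encoded transcripts in WT LT-HSC (3644 against 9470 to 11400 CPM). Its deviations from the group ran against exonic length, with Spearman's rho (the length measure) of -0.44 across 12917 coding genes, which are not independent replicates, against 0.23 to 0.39 in the other 4, a contrast in part fixed by centring on a mean that includes the library. For each comparison that uses it, the number of members called is given with and without it. Sums, ranges and values of single genes include it unless stated otherwise.

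**Figure D1:**
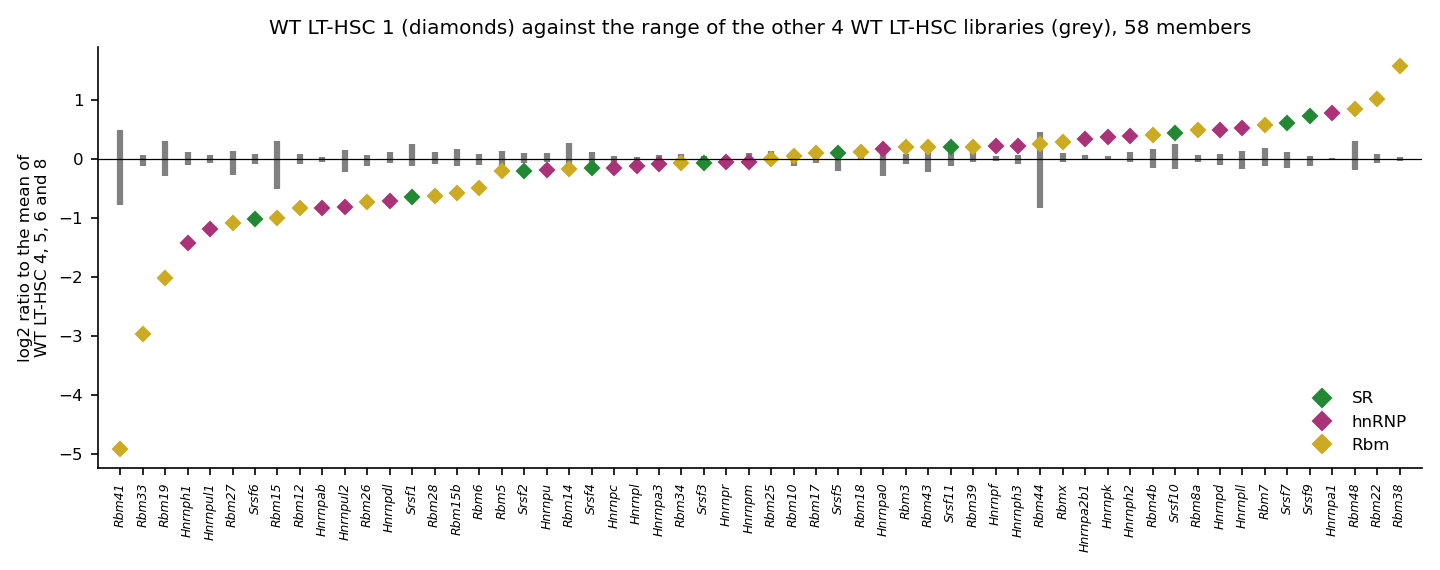
Log2 ratio of the level in WT LT-HSC 1 (diamonds, coloured by family) to the mean of the other 4 WT LT-HSC libraries, with the range of those 4 in grey, for 58 members with a mean of at least 5 CPM. The lowest diamonds are Rbm41, at 0.428 CPM in this library, and Rbm33, at 6.85 CPM, and the highest is Rbm38, at 110.5 CPM.

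The members spanned a wide range of levels. Per kilobase of exonic length, the hnRNPs were highest: Hnrnpf, a relative of Hnrnph1, had a mean of 330.4 CPM per kb over the 20 libraries, Hnrnpk, which binds C-rich RNA, 249.8, and Hnrnpa2b1, which acts in splicing and RNA transport, 209. The highest SR genes were Srsf7 (152 CPM per kb), Srsf2 (119.4) and Srsf5 (119.2). The highest Rbm genes were the cold-induced Rbm3 (68.0), the splicing factor Rbm39 (53.5), which is the target of the anticancer sulfonamide indisulam, and Rbm17 (50.8), a factor that binds 3′ splice sites. With the length of the principal transcript in place of all exons the order changed, Hnrnpa2b1 leading at 826 CPM per kb before Hnrnpk at 604 and Hnrnpf at 419, and Srsf5 (303) and Srsf3 (282.5) before Srsf7 (235), so that the order within a family rests on which exons are used.

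At the other end, 3 members were kept out of the fit of all libraries by the filter on low counts. Rbm46, a germline gene, had at most 0.594 CPM in LT-HSC and no counts in the 10 MPP libraries, where a count of 0 allows up to 0.147 to 0.216 CPM, for counting error only. Rbm24, known for muscle, had at most 3 counts in a library, and Rbm42 at most 8. Rbm20, which controls splicing of titin in the heart, was tested only in the fits of all libraries and in LT-HSC without WT LT-HSC 1, and had 0 to 2.29 CPM. Rbm42 shares 75.4% of its exonic bases with another annotated gene, Gm21982, and Rbm4 60.5% with Gm21992. The library kit is unstranded, and how shared bases were counted is not given in the sources used here, so the low levels of Rbm42 and Rbm4 (mean 1.91 CPM) may count only unshared reads and are uncertain. Srsf4 (43.0%), Rbm12 (33.1%), Rbm4b (30.7%), Hnrnpab (29.1%), Hnrnpf (26.4%) and Srsf2 (25.3%) also share exonic bases with other genes.

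**Figure D2:**
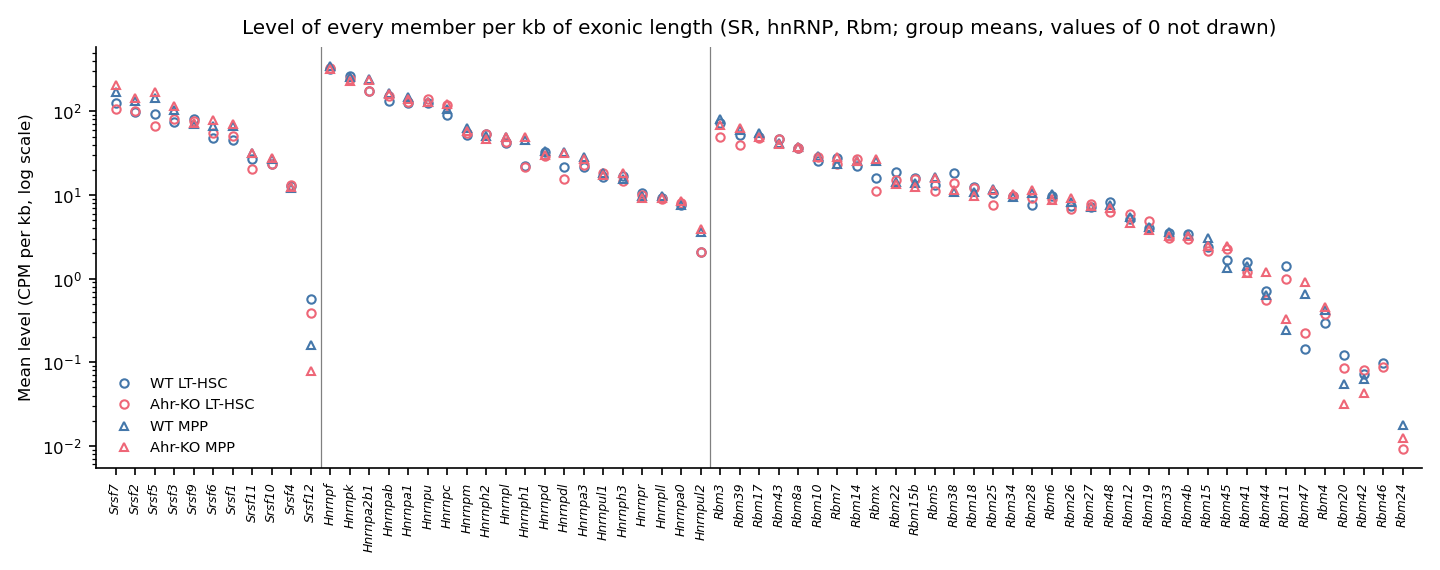
Mean level in each of the 4 groups, in CPM per kb of exonic length on a log axis, for all 67 members ordered within SR, hnRNP and Rbm. Most members lie close together across groups, while Srsf12, Rbm11 and Rbm47 spread widely, and values of 0 are not drawn.

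The SR family was higher in MPP than in LT-HSC. Summed over its 11 genes it reached 2569 to 2855 CPM in WT LT-HSC, 2410 to 2790 in the Ahr-KO LT-HSC, 3189 to 4491 in WT MPP and, for the Ahr-KO MPP, 3832 to 4511, so that the 10 MPP libraries all lay above the 10 LT-HSC libraries. The hnRNP sum was 8313 to 9097 CPM in WT LT-HSC and 9256 to 10070 CPM in WT MPP, without overlap, but in Ahr-KO the ranges of 8518 to 9118 and 8537 to 10120 CPM overlapped. The Rbm sum behaved otherwise: it was 2581 to 2801 CPM in WT LT-HSC, 2266 to 2491 in Ahr-KO LT-HSC, 2754 to 3044 in WT MPP and, for the Ahr-KO MPP, 2691 to 2971, and the Ahr-KO LT-HSC libraries lay below every other library. These sums are descriptions, weigh abundant genes most and carry no test. The lower Rbm sum of Ahr-KO LT-HSC was not shared by the whole family. Against WT LT-HSC, 12 of its 32 tested genes had a positive log2 fold change, with a median of -0.09 and 0 called by edgeR.

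**Figure D3:**
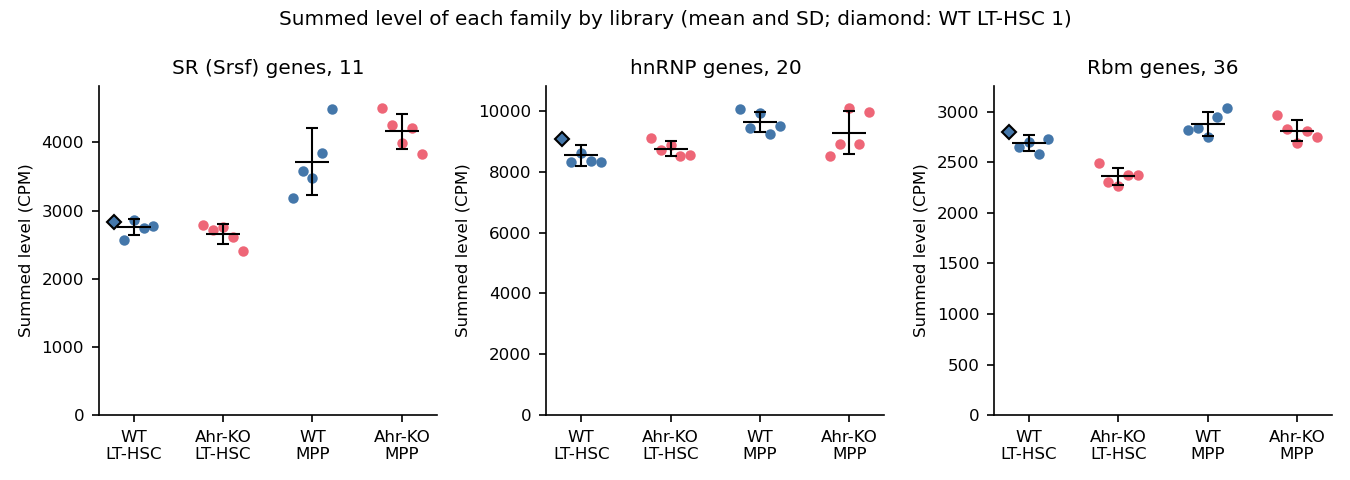
Summed CPM of the 11 SR, 20 hnRNP and 36 Rbm genes in each library (points), with the mean and SD of each group of 5, and WT LT-HSC 1 as a diamond. The SR sums of the MPP libraries begin at 3189 CPM, above the highest LT-HSC value of 2855 CPM, and the Rbm sums of Ahr-KO LT-HSC end at 2491 CPM, below the lowest of the other groups.

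In WT, 17 of the 64 tested members were higher in MPP than in LT-HSC and 2 were lower by edgeR's quasi-likelihood test, at an adjusted p under 0.05. Over all 17416 genes tested 22.3% were called, 11% as higher and 11.3% as lower. By family the higher members were 6 of 11 SR, 8 of 20 hnRNP and 3 of 33 tested Rbm genes, with median log2 fold changes of 0.44, 0.19 and 0.04 beside 0.01 over all genes. In Ahr-KO 20 members were higher and 1 lower, where 23.2% of all genes were called, 12.5% as higher and 10.7% as lower. The higher ones were 7 of 11 SR, 6 of 20 hnRNP and 7 of 33 Rbm genes, with family medians of 0.50, 0.07 and 0.07. The WT comparison without WT LT-HSC 1 gave 18 higher, the same 17 genes and Hnrnpa1, and the same 2 lower, beside 29.9% of all genes called, 15.2% as higher and 14.7% as lower. In bulk RNA, a change in the cells of a sort and a change in the RNA of each cell cannot be told apart.

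Members called higher in MPP in both genotypes numbered 14: Srsf1, Srsf2, Srsf3, Srsf5, Srsf6 and Srsf7, Hnrnpa2b1, Hnrnpdl, Hnrnph1, Hnrnpl and Hnrnpul2, and Rbm5, Rbm47 and Rbmx. None was called lower in both genotypes. The shares of all genes given above are for each genotype apart, and a share for both together is not given here. Hnrnpa3, Hnrnpc and Hnrnpm were called higher in WT alone, and Rbm3, Rbm25, Rbm26, Rbm39, Srsf11 and Hnrnph3 in Ahr-KO alone, but the difference between the genotypes passed the test for no member. Hnrnpc, for one, had a log2 fold change of 0.22 in WT and 0.06 in Ahr-KO, and Rbm25 had 0.13 and 0.59, Rbm3 0.19 and 0.48.

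Among SR genes, Srsf5 (chromosome 12 from 80945504 to 80950507) had the largest rise. It stood at 391, 342, 316, 408 and 398 CPM in WT LT-HSC and 416, 485, 523, 691 and 763 CPM in WT MPP. In Ahr-KO it stood at 280.5, 267, 214, 366 and 221 CPM in LT-HSC and 814, 754, 554, 739.5 and 565 CPM in MPP. In each genotype every MPP library lay above every LT-HSC library, with log2 fold changes of 0.63 ± 0.17 (adjusted p = 0.0104) in WT and 1.34 ± 0.17 (adjusted p = 1.23e-05) in Ahr-KO by edgeR. Srsf3, the smallest SR protein, which also serves in mRNA export, was at 567, 571, 608, 613 and 582 CPM in WT LT-HSC and 741, 804, 788, 809 and 1001 CPM in WT MPP, again without overlap. Its log2 fold changes were 0.49 ± 0.08 (adjusted p = 8.94e-05) in WT and 0.52 ± 0.08 (adjusted p = 5.55e-05) in Ahr-KO.

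Srsf7, an SR protein with a zinc knuckle, was at 609, 356, 434, 404 and 401 CPM in WT LT-HSC and 538, 646, 506, 569 and 759 CPM in WT MPP. The ranges overlap through WT LT-HSC 1, which had the highest LT-HSC value, and the log2 fold change of 0.45 ± 0.13 (adjusted p = 0.0196) was 0.60 ± 0.11 (adjusted p = 0.000470) without that library. In Ahr-KO the levels were 338 to 423 CPM in LT-HSC and 602 to 823 in MPP, apart from each other, with a log2 fold change of 0.93 ± 0.14 (adjusted p = 5.47e-05). Srsf6 was at 248 to 284 CPM among Ahr-KO LT-HSC and 339.9 to 398 in Ahr-KO MPP, and its log2 fold change in WT went from 0.49 ± 0.14 (adjusted p = 0.0152) to 0.33 ± 0.07 (adjusted p = 0.000761) without WT LT-HSC 1, where it was lowest. Srsf1, the founding member of the family, rose by 0.54 ± 0.12 on the log2 scale in WT and 0.50 ± 0.12 in Ahr-KO, and Srsf2 by 0.44 ± 0.10 and 0.52 ± 0.10.

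Srsf4, Srsf9, Srsf10 and Srsf12 were called in neither genotype. The means of Srsf10, a splicing repressor when dephosphorylated, were 166 ± 30.6 CPM in WT LT-HSC and 186 ± 29.8 CPM in WT MPP (SD, n = 5). Srsf12 had the lowest level, with 0.571 to 2.93 CPM in WT LT-HSC and 0.0682 to 0.883 CPM in WT MPP. Its ranges overlapped, and the log2 fold change of -1.79 ± 0.94 (adjusted p = 0.192) rests on few counts, at most 62 in a library.

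Among the hnRNPs, Hnrnph1 (chromosome 11 from 50376990 to 50386528) rose most in both genotypes. It was at 55.3, 153, 161, 138 and 145 CPM in WT LT-HSC and 294, 197, 222, 290 and 329 CPM in WT MPP, and the groups did not overlap. The log2 fold change was 1.03 ± 0.22 (adjusted p = 0.00205), or 0.84 ± 0.15 (adjusted p = 0.000391) without WT LT-HSC 1, where the gene was lowest, and 1.20 ± 0.22 (adjusted p = 0.000527) in Ahr-KO. Hnrnpdl, which resembles Hnrnpd, was at 85.7, 66.4, 53.9, 86.3 and 82.7 CPM among Ahr-KO LT-HSC and 198, 154, 107, 161 and 138 CPM in Ahr-KO MPP, again apart, with log2 fold changes of 1.02 ± 0.18 (adjusted p = 0.000359) there and 0.62 ± 0.18 (adjusted p = 0.0159) in WT.

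Hnrnpul2, a relative of the nuclear scaffold protein hnRNP U, rose by 0.79 ± 0.20 in WT and 0.90 ± 0.20 in Ahr-KO on the log2 scale. The abundant Hnrnpa2b1 was at 1102 to 1212 CPM among Ahr-KO LT-HSC and 1484 to 1625 CPM in MPP, and at 1090 to 1402 and 1465 to 1732 CPM in WT, with log2 fold changes of 0.43 ± 0.07 (adjusted p = 0.000244) and 0.46 ± 0.07 (adjusted p = 0.000143). Its relative Hnrnpa1 was called in WT only without WT LT-HSC 1, at a log2 fold change of 0.42 ± 0.09 (adjusted p = 0.00177) against 0.23 ± 0.14 (adjusted p = 0.269) with it, and in Ahr-KO had 0.14 ± 0.14 (adjusted p = 0.514). The highest hnRNPs by length, Hnrnpf and Hnrnpk, were called in neither genotype.

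Rbmx (chromosome X from 57383530 to 57393036), which encodes hnRNP G, had the most marked rise of the Rbm genes above 5 CPM. In WT it was at 80.9, 64.2, 66.5, 71.2 and 65.0 CPM in LT-HSC and 116, 91.9, 95.7, 115 and 135 CPM in MPP, and in Ahr-KO at 52.6, 50.1, 46.3, 47.2 and 48.0 CPM and 149.5, 125, 85.4, 108 and 107 CPM. Neither pair overlapped, and edgeR gave log2 fold changes of 0.67 ± 0.13 (adjusted p = 0.000824) in WT and 1.24 ± 0.13 (adjusted p = 1.34e-06) in Ahr-KO. Rbm5, a splicing factor often lost in lung cancer, rose by 0.34 ± 0.11 in WT and 0.49 ± 0.11 in Ahr-KO. In Ahr-KO, Rbm39 was at 320.2, 243, 246, 256 and 306 CPM in LT-HSC and 505, 499, 398, 444 and 348 CPM in MPP, without overlap (log2 fold change 0.68 ± 0.11, adjusted p = 0.000213), beside 0.21 ± 0.11 (adjusted p = 0.204) in WT. Srsf11 followed the same course, at 156 to 194 CPM among Ahr-KO LT-HSC and 225 to 332 CPM in Ahr-KO MPP, with log2 fold changes of 0.63 ± 0.11 (adjusted p = 0.000418) there and 0.24 ± 0.11 (adjusted p = 0.146) in WT.

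Outside these calls, 38 tested members were called in neither genotype. For the 34 of them with a mean of at least 5 CPM, log2 fold changes ran from -0.40 (Rbm22) to 0.44 (Rbm28) in WT, with a median of 0.02. In Ahr-KO they began at -0.38 (Rbm12), with a median of -0.02, and the highest belonged to Rbm44, which was at 0.485 to 5.29 CPM in LT-HSC and 4.74 to 14.0 CPM in MPP (adjusted p = 0.121). They include genes of defined machinery, named here for their roles. Rbm8a, a core subunit of the exon junction complex, had 116 ± 19.4 CPM in WT LT-HSC and 122 ± 10.7 in WT MPP (SD, n = 5), close to each other. Rbm17 had 119 ± 7.24 and 132 ± 5.03 CPM, and Rbm15b, an adaptor of the complex that writes N6-methyladenosine, 103 ± 18.0 and 90.2 ± 16.9 CPM. Hnrnpu, which binds the nuclear scaffold, had 1476 ± 106 and 1504 ± 140 CPM.

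Few members were lower in MPP. Rbm38 was at 110.5, 37.7, 38.0, 37.1 and 36.2 CPM in WT LT-HSC and 33.8, 31.2, 27.3, 32.5 and 30.4 CPM in WT MPP. The first of these values, from WT LT-HSC 1, is far above the rest, and without it the log2 fold change went from -0.74 ± 0.24 (adjusted p = 0.0328) to -0.26 ± 0.10 (adjusted p = 0.0475), still without overlap. Rbm18 fell in Ahr-KO, from 71.5 ± 5.38 to 56.1 ± 6.68 CPM (SD, n = 5), with a log2 fold change of -0.35 ± 0.10 (adjusted p = 0.0118). Rbm47, a cofactor of APOBEC1 in RNA editing, and Rbm11 had means under 5 CPM and were singled out after their values were seen. Rbm47 rose from 1.04 ± 0.254 to 4.71 ± 1.41 CPM in WT (SD, n = 5; log2 fold change 2.18 ± 0.42, adjusted p = 0.000894), and from 1.60 ± 1.04 to 6.50 ± 2.55 CPM in Ahr-KO, with 2.01 ± 0.42 (adjusted p = 0.00143). Rbm11, a tissue-restricted splicing factor, fell from 3.91 ± 1.58 to 0.662 ± 0.465 CPM in WT (log2 fold change -2.55 ± 0.59, adjusted p = 0.00371) and in Ahr-KO its fold change on that scale was -1.58 ± 0.57 (adjusted p = 0.0512).

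**Figure D4:**
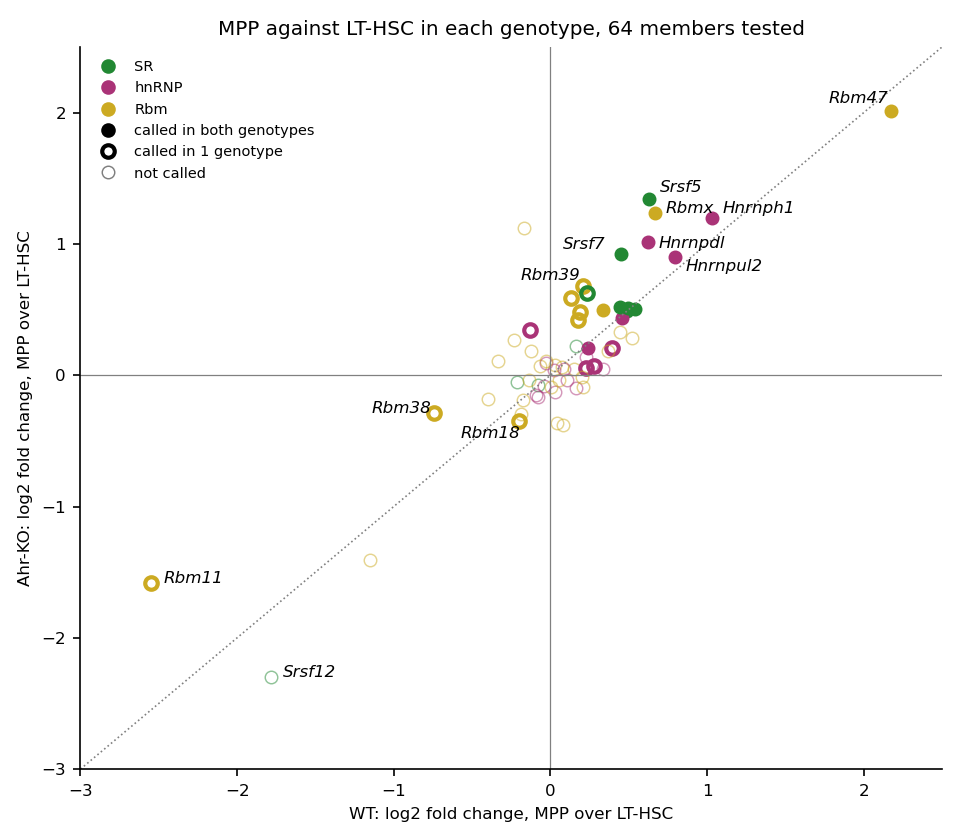
Log2 fold change of MPP over LT-HSC in WT (x axis) and in Ahr-KO (y axis) for the 64 tested members, coloured by family, filled where called in both genotypes. The 2 axes use different libraries, the dotted line marks equal values, and filled points such as Srsf5 (0.63 in WT, 1.34 in Ahr-KO) lie in the upper right.

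Other genes that act with these families were counted beside the 11% of all genes higher in WT and 12.5% in Ahr-KO. Of the 10 kinases and phosphatases of SR proteins, 5 were higher in MPP in WT, Srpk2 by 0.58 and Clk2 by 0.45 on the log2 scale, and 5 in Ahr-KO. In Ahr-KO, Clk1 was at 56.1 ± 13.5 CPM in LT-HSC and 215 ± 44.5 CPM in MPP (SD, n = 5), with a log2 fold change of 1.94 ± 0.24 (adjusted p = 7.21e-06), Clk4 had 1.51 ± 0.16 (adjusted p = 1.97e-06) and Clk2 1.15 ± 0.13 (adjusted p = 3.87e-06). Of 19 tested SR-related genes, among them the nuclear speckle protein gene Pnisr (log2 fold change 1.57 ± 0.23, adjusted p = 5.29e-05 in Ahr-KO), 7 were higher in WT and 11 in Ahr-KO. Pnisr also rose in WT, by 0.99 on the log2 scale, as did Luc7l2 (0.79) and Ddx39b (0.32), and in Ahr-KO Arglu1 (1.53) and Pnn (0.88) did. Of 42 core spliceosome genes 6 (14.3%) were higher in WT, among them Snrnp70 of the U1 particle (0.53), a share near that of all genes, and without WT LT-HSC 1 there were 11 (26.2%, beside 15.2% of all genes). In this list 9 were higher and 1 lower in Ahr-KO, among them Prpf40b (1.27) and Prpf39 (1.05). Of 36 other splicing RNA-binding protein genes, 6 were higher and 4 lower in WT, with Rbfox2 the lower one of smallest p (log2 fold change -2.31 ± 0.37, adjusted p = 0.000139), and 10 were higher and 2 lower in Ahr-KO. Tia1, a stress granule protein gene, rose by 0.82 in WT and 1.49 in Ahr-KO, and Raly by 0.59 and 0.79. Of 15 nonsense-mediated decay genes, 1 (6.67%) was higher in WT, Upf3b (0.64), and in Ahr-KO Upf3b (1.01) and Smg1 (0.69) were higher and Smg6 (-0.69) lower. The WT counts of these lists moved without WT LT-HSC 1, where 15.2% of all genes were higher and 14.7% lower. There 4 kinases and phosphatases were higher, and 7 SR-related genes were higher and 2 lower. Of the other splicing RNA-binding protein genes 9 were higher and 2 lower, and of the nonsense-mediated decay genes 2 and 2.

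Some other measures differed between the populations. The 15 G2/M and mitosis genes summed to 1340 to 2356 CPM in LT-HSC and 2141 to 3911 CPM in MPP, WT LT-HSC 1 holding the highest LT-HSC value, with 14 called in WT and 11 in Ahr-KO. Neutrophil markers summed to 7.13 to 92.2 CPM in WT LT-HSC and 385 to 724 CPM in WT MPP, with 6 of 10 called higher. In Ahr-KO they summed to 8.69 to 1468 CPM in LT-HSC and 153.5 to 801 CPM in MPP, with 0 of 10 called and 0 at an unadjusted p under 0.05. T and NK cell markers summed to 43.2 to 108 CPM in LT-HSC and 241 to 423 CPM in MPP. Within WT MPP the SR sum was lowest in library 1 (3189 CPM), whose length measure was 0.15, and highest in library 5 (4491 CPM), at -0.31. Across coding genes, the log2 fold change of MPP over LT-HSC had a rho with exonic length of -0.06 in WT and -0.12 in Ahr-KO. In WT without WT LT-HSC 1 it was -0.19. The SR genes had a median exonic length of 3988 bp against 4393 bp over the tested coding genes. The part of these measures in the rises was not tested. With 4 MPP libraries of extreme length measure left out, a choice made after seeing the data, 10 members were called in WT, 9 of them higher, and 18 in Ahr-KO. The share of all genes called in these smaller fits is not given here, so the lower counts cannot be read as particular to the members.

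Between Ahr-KO and WT LT-HSC, no member passed the test on all 10 libraries, where edgeR called 0.00622% of the 16065 genes tested, and 9 of 63 members had an unadjusted p under 0.05 beside 8.85% of all genes. DESeq2 called 5 members (Hnrnpc higher; Rbm25, Rbm3, Rbmx and Srsf11 lower), beside 0.993% of its genes, and limma voom 6, beside 1.9%. The groups did not overlap for 1 higher member, Hnrnpc (2.23% of all genes), and 5 lower members, Rbm3, Rbm25, Rbm39, Rbmx and Srsf11 (1.41% of all genes). Without WT LT-HSC 1, edgeR called 7 of 64 members, beside 1.24% of 16338 genes. These were 2 higher (0.428% of all genes) and 5 lower (0.814%). Hnrnpc and Hnrnpa1 were higher, and Rbm3, Rbm25, Rbm33, Rbmx and Hnrnpdl lower. The other tools called 11 members (DESeq2, beside 10.2% of its genes) and 8 (limma voom, beside 2.98%) on these libraries. The largest change of the 7 edgeR calls, that of Hnrnpdl, was 1.49-fold lower.

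Rbm25 (chromosome 12 from 83631236 to 83683123), a splicing factor that works with the U1 particle, had the smallest p. It was at 185, 182, 179, 177 and 202 CPM in WT and 139, 135, 118, 138 and 137 CPM in Ahr-KO LT-HSC. All Ahr-KO libraries lay below all WT libraries, and WT LT-HSC 1 sat among the other WT values. Its log2 fold change was -0.46 ± 0.08 (adjusted p = 0.154) on all libraries and -0.46 ± 0.06 (adjusted p = 0.0123) without WT LT-HSC 1. Rbm3 (chromosome X from 8138975 to 8145880), whose product protects translation in the cold, was at 374, 310.1, 306, 347 and 345 CPM in WT and 219, 207, 221, 262 and 256 CPM in Ahr-KO, apart again, with log2 fold changes of -0.52 ± 0.09 (adjusted p = 0.183) with WT LT-HSC 1 and -0.48 ± 0.08 (adjusted p = 0.0176) without it. Rbmx had the LT-HSC values given above, lower in every Ahr-KO library than in any WT library, with log2 fold changes of -0.49 ± 0.09 (adjusted p = 0.213) with that library and -0.44 ± 0.07 (adjusted p = 0.0179) without it.

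Hnrnpc (chromosome 14 from 52073377 to 52104028), whose protein coats uridine tracts in introns, went the other way. It was at 362, 410.1, 412, 413 and 372 CPM in WT and 534, 546, 542, 472 and 485 CPM in Ahr-KO LT-HSC. Every Ahr-KO library was above every WT library, with a log2 fold change of 0.40 ± 0.08 (adjusted p = 0.217) on all libraries and 0.37 ± 0.06 (adjusted p = 0.0213) without WT LT-HSC 1. Srsf11 was at 250.3, 200.3, 228, 210.5 and 237 CPM in WT and 194, 186, 169.8, 156 and 167 CPM in Ahr-KO. It did not overlap, but was called in neither fit, with log2 fold changes of -0.35 ± 0.09 (adjusted p = 0.421) and -0.31 ± 0.08 (adjusted p = 0.0688). Rbm39, chosen after its values were seen, was at 334 to 401 CPM in WT and 243 to 320.2 CPM in Ahr-KO, with log2 fold changes of -0.37 ± 0.10 (adjusted p = 0.434) and -0.33 ± 0.09 (adjusted p = 0.0759).

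In the edgeR fits of LT-HSC libraries alone, all 7 calls were made only without WT LT-HSC 1. The edgeR fit of all libraries of both populations called Hnrnpc with WT LT-HSC 1 included. For Rbm33, Hnrnpdl and Hnrnpa1 that library lay far from the other WT libraries, though limma voom called Hnrnpdl with it included. Rbm33 was at 6.85, 49.2, 53.8, 55.1 and 56.3 CPM in WT and 38.8, 37.3, 36.7, 33.8 and 43.3 CPM in Ahr-KO, with log2 fold changes of -0.48 ± 0.09 (adjusted p = 0.0307) without that library and -0.21 ± 0.42 (adjusted p = 0.928) with it. Hnrnpdl was at 68.1, 106, 108, 113 and 121 CPM in WT LT-HSC, with log2 fold changes of -0.57 ± 0.12 (adjusted p = 0.0458) without it and -0.45 ± 0.18 (adjusted p = 0.513) with it. Hnrnpa1 was at 599, 353, 349, 348 and 348 CPM in WT and 399, 391, 405, 389.8 and 427 CPM in Ahr-KO, with log2 fold changes of 0.22 ± 0.04 (adjusted p = 0.0431) without it and 0.03 ± 0.15 (adjusted p = 0.981) with it. The direction was the same with and without the library for all 3 genes, and the size differed by over 1.5 times for Rbm33 and Hnrnpa1 on the log2 scale.

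The calls varied with the libraries used. With 1 further WT LT-HSC library left out beside WT LT-HSC 1, edgeR called 1 member without library 4 or 6, 2 without library 5 and 0 without library 8. Dropping Ahr-KO LT-HSC 1, 2, 3, 4 or 7 in turn gave 8, 4, 5, 7 and 6 calls, and 1, Rbm25, without Ahr-KO LT-HSC 2 and 3, which were left out after seeing the data. The shares of all genes called with these libraries left out are not given here, so the counts cannot be set against all genes. Over these 10 choices the log2 fold change of Rbm25 ran from -0.48 to -0.42 (adjusted p from 0.0180 to 0.0799), that of Rbm3 from -0.52 to -0.41, that of Rbmx from -0.47 to -0.40 and that of Hnrnpc from 0.31 to 0.41. Ahr-KO LT-HSC 2 and 3 held 968 and 1468 CPM of neutrophil and 2561 and 3019 CPM of erythroid markers, against 8.69 to 16.6 and 130.5 to 382 CPM in the other Ahr-KO LT-HSC libraries and 7.13 to 92.2 and 418 to 1867 CPM in WT LT-HSC, and library 3 held 4153 CPM of stromal and endothelial markers. Without WT LT-HSC 1, log2 fold changes ran against exonic length, with a rho of -0.32 across coding genes, and the SR, hnRNP and Rbm genes have a median exonic length of 5338 bp against 4393 bp over the tested coding genes. The SR genes alone have a median of 3988 bp. The 10 MPP markers summed to 672 to 1449 CPM in WT and 520.9 to 2384 CPM in Ahr-KO LT-HSC. Immediate early genes summed to 670 to 1573 CPM in WT and 518 to 976 CPM in Ahr-KO LT-HSC. Mitochondrially encoded genes summed to 9470 to 11400 CPM in the 4 other WT and 11160 to 15000 CPM in the Ahr-KO LT-HSC, with 11 of 13 at an unadjusted p under 0.05 without WT LT-HSC 1 and none called. The part of these measures in the calls was not tested.

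**Figure D5:**
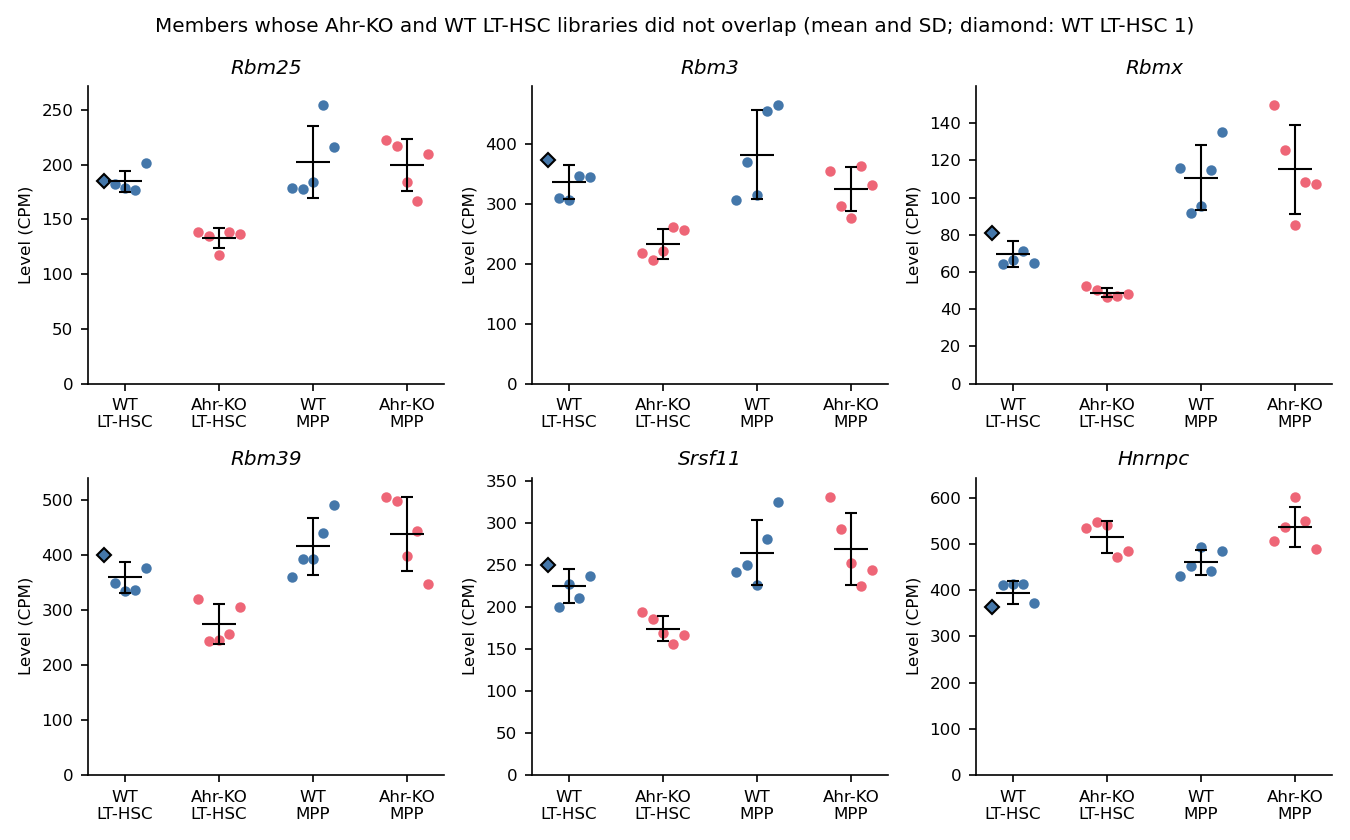
CPM of the 6 members whose Ahr-KO and WT LT-HSC libraries did not overlap, in each library of the 4 groups, with the mean and SD of each group and WT LT-HSC 1 as a diamond. Rbm25, Rbm3, Rbmx, Rbm39 and Srsf11 are lowest in Ahr-KO LT-HSC, where Rbm25 reaches at most 139 CPM, while Hnrnpc is higher there than in WT LT-HSC.

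Among the associated lists, no gene was called by edgeR on all LT-HSC libraries, where 17 of 121 tested had an unadjusted p under 0.05 (8.85% of all genes). Without WT LT-HSC 1, 2 of 9 kinases and phosphatases of SR proteins were lower in Ahr-KO (0.814% of all genes): Clk1, at 56.1 ± 13.5 CPM (SD, n = 5) against 116 ± 23.7 (SD, n = 4) in WT (log2 fold change -1.04 ± 0.18, adjusted p = 0.0321), and Clk4, with -0.75 ± 0.11 (adjusted p = 0.0162). The SR-related genes Luc7l (log2 fold change -0.40 ± 0.06, adjusted p = 0.0192) and Arglu1 (log2 fold change -0.48 ± 0.09, adjusted p = 0.0357) were lower of 19, and the core spliceosome genes Prpf39 (log2 fold change -0.68 ± 0.10, adjusted p = 0.0155) and Sf3b1 (log2 fold change -0.29 ± 0.06, adjusted p = 0.0426) of 42. Of 36 other splicing RNA-binding protein genes Pcbp1 rose (0.428% of all genes) and Rbfox2 fell, and of 15 nonsense-mediated decay genes 0 were called, with 4 at an unadjusted p under 0.05 beside 18.9% of all genes.

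Between Ahr-KO and WT MPP, no member was called by edgeR, DESeq2 or limma voom, beside 0.0311% of 16077 genes by edgeR, 0.312% by DESeq2 and 0.0498% by limma voom, and 6 of 63 members had an unadjusted p under 0.05 beside 6.62% of genes. No member's groups were apart, where 1.17% of all genes were. Of the 11 SR genes 10 had a positive log2 fold change, with a median of 0.09. The smallest p belonged to Rbm45, at 2.18, 2.44, 3.66, 1.97 and 2.43 CPM in WT and 2.25, 5.84, 6.27, 4.09 and 4.96 CPM in Ahr-KO, overlapping at the low end (log2 fold change 0.88 ± 0.31, adjusted p = 0.620). The log2 fold change of Srsf6 was 0.21 ± 0.08 (adjusted p = 0.660), Hnrnpc 0.22 ± 0.08 (adjusted p = 0.663), Hnrnph3 0.25 ± 0.10 (adjusted p = 0.675) and Rbm7, a subunit of the complex that brings nuclear RNA to the exosome, 0.26 ± 0.10 (adjusted p = 0.663). Of the associated lists 0 of 121 genes were called by edgeR and 11 had an unadjusted p under 0.05, beside the same 6.62% of all genes, the kinase gene Clk2 having 0.37 ± 0.12 (adjusted p = 0.615). Of 15 G2/M and mitosis genes 0 had a positive log2 fold change (median -0.32), with 13 at an unadjusted p under 0.05 and 0 called. Among 9 megakaryocyte and platelet genes 0 were positive and 1 was called lower, while 9 of 9 B cell genes were positive and 0 called. Log2 fold changes of Ahr-KO over WT MPP had a rho of -0.17 with exonic length across coding genes. The part of these measures in the member values was not tested.

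Whether the Ahr-KO difference itself differed between MPP and LT-HSC was tested as an interaction. It passed for no member and for 0% of the 17416 genes by edgeR, with 8 of 64 members at an unadjusted p under 0.05 beside 6.46% of genes, and for no member by DESeq2 (0.311% of genes) or limma voom (0.103%). Of 122 genes in the associated lists it passed for 0, with 17 at an unadjusted p under 0.05, beside the same 6.46%. On all libraries the smallest p were those of Hnrnph3 (log2 fold change 0.47 ± 0.15, adjusted p = 0.552), Rbm25 (log2 fold change 0.46 ± 0.14, adjusted p = 0.552), Rbmx (log2 fold change 0.57 ± 0.18, adjusted p = 0.578), Rbm7 and Srsf5 (log2 fold change 0.71 ± 0.24, adjusted p = 0.598), all with positive differences, MPP minus LT-HSC. The test without WT LT-HSC 1 again passed for 0% of 17788 genes, with 11 members at an unadjusted p under 0.05 beside 8.37% of genes. There Rbm25 had the smallest p (log2 fold change 0.46 ± 0.14, adjusted p = 0.359). In MPP, Rbm25 stood at 178 to 254 CPM in WT and 167 to 222 CPM in Ahr-KO, and Rbmx at 91.9 to 135 and 85.4 to 149.5 CPM, ranges that overlap.

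Since AHR with its partner ARNT binds DNA at a core of the letters GCGTG, the windows from 250 bases before to 50 after annotated starts (RefSeq, GRCm38.p6) were searched for it on both strands. Of the 67 genes 59 had a window, and 8 had none (Hnrnpll, Hnrnpul2, Rbm3, Rbm8a, Rbm20, Rbm22, Rbm27 and Rbm44). The core was in 40 of 76 windows (52.6%), against 32.4% of all 32851 windows. It was in 50% of 20 windows of the members higher in MPP in both genotypes, and in 28.6% of 7 windows of those apart in LT-HSC. These windows come from 13 and 5 genes, and the 2 with a core in the second set are both of Srsf11. Windows of a gene can overlap and are not separate units. Hnrnph1 has 5 windows, and the 2 windows of Hnrnpa2b1 count the same cores again. Other motifs found in the members' windows were the GC box GGGCGG (63.2% against 35.7% of all windows), CCAAT (47.4% against 37.4%), the ETS core CCGGAAG (19.7% against 8.86%), the E box CACGTG (11.8% against 7.15%) and the TATA box TATAAA (13.2% against 13.6%). The ZBTB33 palindrome was in 4 windows (5.26% against 0.466%), those of Rbm15, Rbm26, Rbm39 and Srsf10. The GC box and the AHR core can fall in the same GC-rich stretches, and the base composition of the windows was not matched, so these shares describe letters and not binding.

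The windows of 3 SR genes that rose in MPP and of 2 genes whose LT-HSC libraries were apart are shown up to the start, 250 bases each, 5′ to 3′ on the gene's strand, with the AHR core in capitals, in its reverse complement where it lies on the other strand. Srsf6 holds 3 cores and Srsf3 has 1, at 186 bases before the start, while Srsf5, Rbmx and Hnrnpc have none in these letters:
Srsf6 (chr2:162931258-162931507, plus strand): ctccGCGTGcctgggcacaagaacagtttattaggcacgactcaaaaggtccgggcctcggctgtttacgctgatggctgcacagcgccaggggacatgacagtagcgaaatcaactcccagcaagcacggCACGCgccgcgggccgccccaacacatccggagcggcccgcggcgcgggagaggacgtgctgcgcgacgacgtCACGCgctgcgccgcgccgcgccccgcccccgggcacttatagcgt
Srsf3 (chr17:29032410-29032659, plus strand): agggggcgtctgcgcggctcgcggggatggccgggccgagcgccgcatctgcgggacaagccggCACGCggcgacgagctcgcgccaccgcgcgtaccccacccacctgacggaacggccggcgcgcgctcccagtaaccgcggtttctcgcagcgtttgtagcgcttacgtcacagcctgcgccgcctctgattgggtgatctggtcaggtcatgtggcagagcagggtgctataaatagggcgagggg
Srsf5 (chr12:80945249-80945498, plus strand): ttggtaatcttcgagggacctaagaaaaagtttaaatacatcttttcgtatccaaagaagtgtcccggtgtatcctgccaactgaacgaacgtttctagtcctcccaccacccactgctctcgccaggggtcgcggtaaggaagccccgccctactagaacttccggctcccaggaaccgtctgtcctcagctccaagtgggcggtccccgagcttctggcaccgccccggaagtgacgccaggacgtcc
Rbmx (chrX:57393037-57393286, minus strand): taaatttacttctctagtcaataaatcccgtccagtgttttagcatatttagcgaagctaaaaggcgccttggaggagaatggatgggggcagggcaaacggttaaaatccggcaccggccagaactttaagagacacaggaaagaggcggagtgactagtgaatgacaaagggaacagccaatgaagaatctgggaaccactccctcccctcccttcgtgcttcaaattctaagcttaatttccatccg
Hnrnpc (chr14:52104022-52104271, minus strand): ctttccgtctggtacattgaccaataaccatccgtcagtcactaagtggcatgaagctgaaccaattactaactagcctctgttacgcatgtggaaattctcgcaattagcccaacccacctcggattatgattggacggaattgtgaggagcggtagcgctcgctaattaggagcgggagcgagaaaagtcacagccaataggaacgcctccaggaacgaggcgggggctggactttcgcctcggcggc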

How the data were processed

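RNA of 20 libraries from sorted mouse LT-HSC and MPP was sequenced with an unstranded poly(A) kit, per the labels' protocols, a passage that also speaks of DC samples, 3 per group. The authors deposited raw counts per gene symbol in 2 tables, which were joined. Tools in the submitters' processing notes are Trimmomatic 0.36, STAR 2.5.2b, featureCounts of Subread 1.5.0p3, DESeq2 1.12.4 and GRCm38.p5, while counting settings and the annotation are not given. Coordinates and exonic lengths came from GENCODE M21 (GRCm38), in which all 67 symbols were found once.

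Counts were tested with edgeR 4.0.16 in R 4.3.3 (filterByExpr, TMM, robust two-sided quasi-likelihood test). P-values were adjusted by Benjamini and Hochberg's method over every gene of a fit, and 0.05 was the limit for a call. The genotype comparisons used the 10 libraries of a population, and other contrasts came from 1 fit of all 20 libraries. Each SE is the absolute log2 fold change over the root of the F statistic. The script was tested on simulated data. DESeq2 1.42.0 and limma 3.58.1 (voom) were alternatives. The members and lists were chosen with earlier results of these data known. Named were, per comparison, called members of at least 5 CPM, the 8 largest rises and falls, or the 5 smallest p where none was called; the 3 highest per kb of each family; members not tested; and, of each associated list, up to 3 called genes of smallest p or the single smallest. Others are marked. Counts carry no molecular identifiers, and values under 1 CPM are imprecise.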

Additional observations from a re-analysis of the deposited data

Results flagged for a closer look

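In 116 sets of 5 libraries, 1 for each named member and group, the most extreme library was compared with the nearest of the others by Dixon's criterion (critical value 0.71), which chance passes in about 1 of 20 sets. It was passed 12 times, 9 of them in WT LT-HSC 1. In that library Hnrnpa1 (599 CPM against 347.7 to 353.4), Hnrnpa2b1 (1402 against 1090 to 1155), Hnrnpk (2085 against 1576 to 1652) and Rbm38 (110.5 against 36.2 to 38.0) were high. Hnrnpdl (68.1 CPM against 106.4 to 121.4), Hnrnph1 (55.3 against 138.5 to 160.6), Rbm33 (6.85 against 49.2 to 56.3), Rbm45 (1.85 against 3.31 to 3.83) and Srsf6 (126.4 against 241.4 to 271.6) were low there. Outside it, Rbm25 was low in Ahr-KO LT-HSC 3 (117.5 CPM against 135 to 138.6), Srsf3 high in WT MPP 5 (1001 against 741.3 to 809.3) and Rbm45 high in WT MPP 3 (3.66 against 1.97 to 2.44).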

How the results depend on the processing

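For Ahr-KO against WT LT-HSC, edgeR's 0 called members became 5 with DESeq2, 6 with limma voom with sample weights, 1 with all libraries in 1 fit, and 0 to 7 with 1 library left out in turn, the 7 without WT LT-HSC 1. Without WT LT-HSC 1 the 7 became 11 with DESeq2, 0 at a fold change of at least 1.5, 1 with all libraries in 1 fit, 1 without Ahr-KO LT-HSC 2 and 3 (chosen after seeing the data), and 0 to 8 with 1 further library left out. For WT MPP against LT-HSC the 19 became 8 at a fold of at least 1.5, 12 with only the 2 groups compared, 10 with 4 MPP libraries of extreme length measure left out, and 13 to 20 with 1 library left out. Without WT LT-HSC 1 the 20 became 7 at that fold and 14 to 19 with 1 more library left out. In Ahr-KO the 21 became 10 at that fold and ranged from 17 to 21 with 1 library left out. Without Ahr-KO LT-HSC 2 and 3, again chosen after seeing the data, Srsf6, Hnrnpl, Hnrnph3, Rbm26 and Rbm3 lost the call and Srsf12 gained it. No member was called between Ahr-KO and WT MPP, or for the difference of effects, in any alternative run. For Ahr-KO against WT LT-HSC the share of all genes called moved too. It was 0.00622% by edgeR, 0.993% by DESeq2 and 1.9% by limma voom. Without WT LT-HSC 1 it was 1.24%, 10.2% and 2.98%. For the runs with other settings or libraries this share is not given here, so their counts cannot be set against all genes. The cause of these changes was not tested. A fold threshold can only lower a count, while leaving out libraries lowered some counts and raised others, as WT LT-HSC 1 did.

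Whether equal replicate numbers mark paired samples could not be decided. Deviations of same-numbered libraries from their group means correlated at r from -0.29 to 0.25, the lowest between MPP of the 2 genotypes. Between LT-HSC and MPP of 1 genotype, r ran from -0.13 to 0.05 in WT and from 0.03 to 0.25 in Ahr-KO. So few libraries cannot show whether numbers pair them. With the number as a replicate block, on the libraries whose numbers both groups share, members called were 0 in WT MPP against LT-HSC, 12 there without WT LT-HSC 1, 22 in Ahr-KO MPP against LT-HSC, and 0 in both Ahr-KO comparisons and in the difference of effects. Few numbers were shared, only 1 and 4 between Ahr-KO and WT LT-HSC, and 1, 4 and 5 between WT LT-HSC and WT MPP. Across genotypes, equal numbers name mice of different genotype, so the 0 calls there cannot decide whether numbers mark pairs. No paired analysis was possible because only 1 number is shared for Ahr-KO against WT LT-HSC without WT LT-HSC 1. Over the named members and alternatives, 986 values were unchanged, 95 lost the call, 14 gained it and 0 reversed. For a comparison, unchanged means the same direction and side of the threshold, and some of the 986 values belong to no comparison. Levels per kb of the 9 highest members moved by more than their spread with the principal transcript length.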
